A study of Neotoma lepida with 16 samples.

Results

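The mu class of glutathione S-transferases (genes Gstm1 to Gstm6 on a rat array) was measured in the livers of desert woodrats (Neotoma lepida) fed creosote bush or juniper. The members were all probes whose gene name on the array begins with Gstm. They were 8 probes for 6 gene names, of 41012 probes for 35561 gene or transcript names in all. All 8 were bright enough to be tested, as were 30202 probes of the array. A further probe, described as similar to a mu-class transferase but named MGC108896, fell outside this rule and was left out.

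Glutathione S-transferases join the tripeptide glutathione to reactive, electrophilic compounds, which makes them more soluble and ready for export. The conjugate is trimmed to a mercapturic acid and leaves in bile or urine. The mu class is one of several cytosolic classes, is abundant in rodent liver, and is known to be induced by many plant and synthetic compounds. Creosote bush leaves carry a phenolic resin and juniper foliage is rich in terpenes, so the liver of a woodrat on either plant handles many foreign compounds.

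The trial crossed 2 populations, from the Great Basin and from the Mojave desert, with 2 diets, in 4 animals per group. The animals were caught in the wild, held in single cages on rabbit chow for 3 months and then given chow with rising amounts of creosote or of juniper for 5 days. The groups were Great Basin on creosote, Great Basin on juniper, Mojave on creosote and Mojave on juniper. Males alone (4) made up the Mojave creosote group, whereas the other groups each had 2 of either sex. No group stayed on chow alone, so higher on creosote can equally be read as lower on juniper, and a gene said to rise or fall did so on creosote as measured against juniper. Ages are not given in the sources used here.

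Each array compared 1 animal, in the red dye (Cy5), with an equimolar pool of the liver RNA of all 16 animals, in the green dye (Cy3), and no array had the dyes exchanged. The level given for an animal is the log2 ratio of animal over pool, so 0 is the level of the pool and 1 unit is a doubling. The probes were designed on rat transcripts. Whether probes of these closely related genes measured separate woodrat transcripts was not tested, and a gene symbol below stands for its rat probe. The level of one gene is not set against that of another.

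Between 46.4% and 76.2% of probes were well above background on an array, and the 4 arrays of slide 1, 1 animal of each group, were the dimmest (46.4% to 52.4%). Each of the 4 slides held 1 animal of each group. Each group kept 1 position on every slide: Great Basin creosote 1, Mojave creosote 2, Mojave juniper 3 and Great Basin juniper 4. Diet and array position therefore cannot be told apart, nor can population and position within a diet. All 11 tested markers of hepatocytes were well above background on all 16 arrays, as the liver label requires. Their mean level moved with diet, from 0.33 to 0.76 in the creosote animals and from -0.12 to 0.01 in the juniper animals. Of the 11, 4 rose in Great Basin animals (Ahsg, Ambp, Cps1 and Tat), 5 rose in Mojave animals (Alb, Ambp, Fgb, Tat and Ttr) and 0 fell in either. Of all tested probes, 2.02% were called higher and 1.89% lower on creosote in Great Basin animals. These shares were 3.8% and 6.23% in Mojave animals, and 5.65% and 6.57% averaged over populations. The mean of 7 pancreas and intestine markers was also higher on creosote, from 0.05 to 0.41 against -0.37 to -0.03. Their median difference was only -0.03 in Great Basin and 0.04 in Mojave animals, while the amylase Amy2 was at 1.89 and 2.23. Ela1 of that list rose in Mojave animals (0.59), and Fabp2 fell when averaged over populations (-0.17). Among markers of other liver cells, endothelial Xlkd1 rose in both populations (0.56 and 0.56). Rgs5 of stellate cells rose (1.23) and Cd14 of Kupffer cells fell (-0.54) in Great Basin animals, and cholangiocyte Cldn4 rose in Mojave animals (0.33). They were 1 of 6 endothelial, 1 of 7 stellate and fibroblast, 1 of 8 Kupffer and 1 of 4 cholangiocyte markers. In that order, the median diet differences of these lists were 0.11, 0.15, 0.07 and 0.08 in Great Basin animals. In Mojave animals they were -0.01, 0.23, 0.02 and 0.06. The mean of 7 stellate and fibroblast markers separated the Mojave diets (0.12 to 0.37 on creosote, -0.33 to -0.05 on juniper) and overlapped in Great Basin animals. Singly, 0 of the 7 passed in Mojave animals, and Pdgfrb of that list rose when averaged over populations (0.68). In the lymphocyte, erythroid and neutrophil lists 0 of 5, 0 of 3 and 0 of 3 tested markers passed for diet. These values stand beside every diet difference below, and their part in the Gstm results was not tested. In a piece of liver, fewer cells of a type and less RNA per cell cannot be told apart.

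The probes fell into a bright set and a dim set. The probe of Gstm4 (A_44_P391068, rat transcript NM_020540) had a mean red signal of 12800 intensity units, the brightest probe of Gstm5 (A_44_P331464, NM_172038) 11100 and that of Gstm2 (A_44_P109455, NM_177426) 1850, over a local background near 50 units. The dim set held 2 further Gstm5 probes, A_44_P517296 at 180 and A_44_P517303 at 98.6, both taken from 1 expressed sequence tag. It also held Gstm3 (A_42_P716352) at 151, Gstm1 (A_43_P11776) at 137 and Gstm6 (A_43_P18643) at 75.8. Gstm6 was well above background on 9 of 16 arrays, Gstm1 and A_44_P517303 on 15, and the other 5 probes on 16. Each probe had 1 spot per array, and no Gstm spot was saturated. An offset of 50 units was added to each corrected signal, which draws the ratios of the dim probes towards 0.

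Averaged over both populations, the creosote livers held more transcript by the probes of Gstm2 and Gstm5 and less by the probe of Gstm4. Of the 8 Gstm probes, 4 rose, 1 fell and 3 did not pass at an adjusted p of 0.05. Of all tested probes 12.2% passed, 5.65% higher and 6.57% lower on creosote. The members that rose were Gstm2 and all 3 Gstm5 probes, and the member that fell was Gstm4. The median difference of the 8 probes was 0.16 against -0.007 over all tested probes. Gstm2 rose by 1.01 ± 0.21 on the log2 scale (SE, adjusted p = 0.00558 by limma), a 2.02-fold difference. Gstm5 rose by 1.37 ± 0.31 by its bright probe (adjusted p = 0.0084), a 2.58-fold difference. Gstm4 fell by 0.75 on the log2 scale (SE 0.14, adjusted p = 0.00177), a 1.69-fold difference. These 3 averaged differences passed without any 1 of the 16 animals, and each missed the threshold in male animals alone (adjusted p = 0.131, 0.181 and 0.066).

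**Figure D1:**
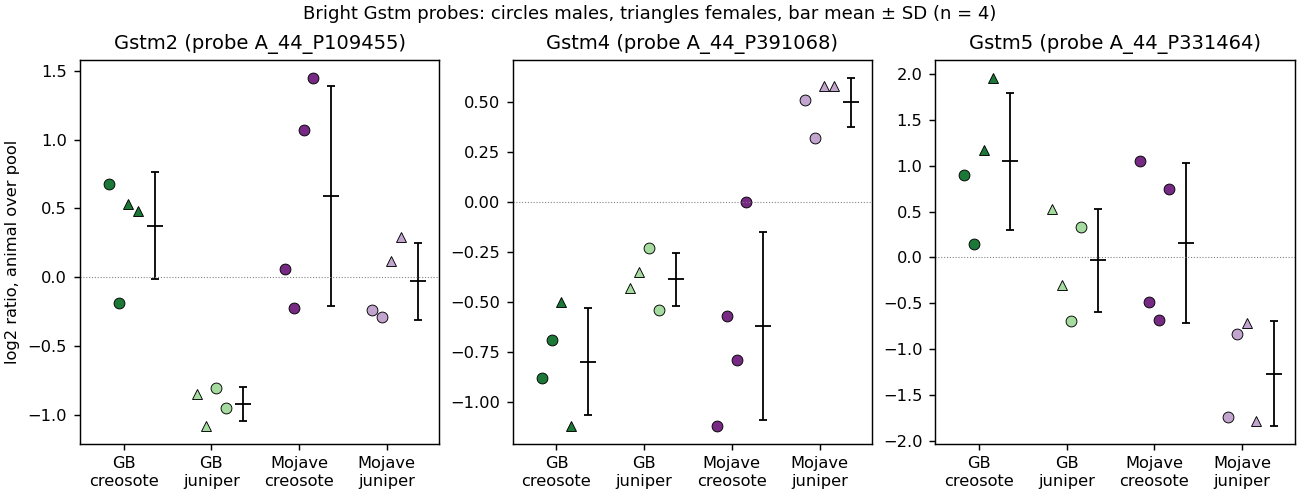
Levels of the 3 bright Gstm probes in each animal, as log2 of animal over pool, with 1 panel per probe and its own vertical scale (GB, Great Basin; circles, males; triangles, females; bar, mean ± SD of 4 animals). Gstm2 is lowest in Great Basin juniper animals (-1.08 to -0.80), Gstm4 highest in Mojave juniper animals (0.32 to 0.58), and Gstm5 lowest in Mojave juniper animals (-1.78 to -0.72).

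The question of whether diet changed these genes was asked in each population in turn. Gstm2, a mu-class subunit found in many rat tissues, was the member that passed in Great Basin animals. The Great Basin creosote animals 1 to 4 had Gstm2 levels of 0.68, -0.19, 0.53 and 0.48, and the juniper animals -0.85, -1.08, -0.80 and -0.95. All 4 creosote animals stood above all 4 juniper animals, and the juniper animals lay close together while creosote animal 2 was the lowest on its diet. The means were 0.38 ± 0.38 and -0.92 ± 0.13 (SD, n = 4 each). The difference was 1.30 ± 0.29 (SE, adjusted p = 0.0206), or 2.46-fold, and it was 0.90 to 1.48 within the 4 slides. The call was lost without creosote animal 1 or 3 or juniper animal 1, 2 or 4 (adjusted p = 0.077, 0.0507, 0.0613, 0.0671 and 0.0514). It was also lost without slide 1 (1.24, adjusted p = 0.123) and in males alone (1.12, adjusted p = 0.401).

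In that comparison 1 of 8 Gstm probes passed, on the higher side, where 3.91% of all tested probes did (2.02% higher and 1.89% lower). At an unadjusted p under 0.05 by limma there were 4 of 8, namely Gstm2, Gstm4 and the Gstm5 probes A_44_P331464 and A_44_P517303, and 5114 of 30183 over all tested probes. Gstm2 was the member whose Great Basin diet groups did not overlap, which held for 10.2% of all tested probes. The median difference was 0.09 for the 8 probes and -0.004 for all probes.

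In Mojave animals the Gstm2 levels overlapped between the diets. The creosote animals had 0.06, -0.22, 1.07 and 1.45, and the juniper animals -0.24, -0.29, 0.12 and 0.29. Creosote animals 3 and 4 were the 2 highest of all 16 animals, while creosote animals 1 and 2 lay among the juniper animals. The means were 0.59 ± 0.80 and -0.03 ± 0.28 (SD, n = 4 each), 0.62 apart. With sex in the fit, the difference was 0.73 ± 0.32 (SE) and did not pass (limma adjusted p = 0.181). It passed without Mojave creosote animal 2 (1.00, adjusted p = 0.045).

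Gstm4 and the bright probe of Gstm5 were the members that passed in Mojave animals, in opposite directions. These were 2 of 8, where 10% of all tested probes passed (3.8% higher and 6.23% lower). Gstm4, another mu-class transferase, was lower on creosote. The Mojave creosote animals had Gstm4 levels of -1.12, -0.57, -0.79 and 0.00, and the juniper animals 0.51, 0.32, 0.58 and 0.58. The groups did not overlap: the juniper animals were the 4 highest of the study, and creosote animal 4 was the nearest to them. The means were -0.62 ± 0.47 and 0.50 ± 0.12 (SD, n = 4 each). Gstm4 fell by 1.10 on the log2 scale (SE 0.20, adjusted p = 0.00292), or 2.14-fold, and the slides gave -1.62 to -0.58. This call held without any 1 animal (adjusted p up to 0.0153) and in all 12 other settings, from -1.62 with median centring to -1.01 without slide 1. In males alone it was -1.04 (adjusted p = 0.0492).

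In Great Basin animals Gstm4 overlapped between the diets. The creosote animals had -0.88, -0.69, -0.50 and -1.12, and the juniper animals -0.43, -0.35, -0.23 and -0.54. Creosote animal 3 was the one that reached into the juniper range, just above juniper animal 4. The means were -0.80 ± 0.26 and -0.39 ± 0.13 (SD, n = 4 each), and the difference of -0.41 ± 0.18 did not pass (adjusted p = 0.266). Within the slides it ran from -0.69 to 0.03.

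Gstm5, known in rodents for expression in brain and testis, was higher on creosote in Mojave animals by its bright probe. The Mojave creosote animals had levels of 1.05, -0.49, -0.68 and 0.75, and the juniper animals -1.74, -0.83, -0.72 and -1.78. The groups did not overlap, but creosote animals 2 and 3 lay close above juniper animals 2 and 3, and each group was spread over more than 1 log2 unit. The means were 0.16 ± 0.87 and -1.27 ± 0.57 (SD, n = 4 each). These means, not adjusted for sex, were 1.43 apart, and the slides gave 0.04 to 2.79. With sex in the fit, Gstm5 rose by 1.65 ± 0.45 (SE, limma adjusted p = 0.0303), or 3.15-fold.

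The Mojave call of Gstm5 was less stable than that of Gstm4 under the settings run. It was lost without Mojave creosote animal 1 or 4 or juniper animal 1 or 4 (adjusted p = 0.0803, 0.0748, 0.109 and 0.0617). It was also lost with the software's processed signals (1.69, adjusted p = 0.0534), median centring (1.26, adjusted p = 0.0762), the red channel alone (1.75, adjusted p = 0.0574) and males alone (1.44, adjusted p = 0.173). The value itself stayed between 1.26 and 1.99 throughout.

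In Great Basin animals the bright Gstm5 probe overlapped between the diets. The creosote animals had 0.90, 0.15, 1.17 and 1.96, and the juniper animals 0.53, -0.30, -0.69 and 0.33. Only creosote animal 2 reached into the juniper range, and creosote animal 4 was the highest of all 16. The means were 1.05 ± 0.74 and -0.03 ± 0.56 (SD, n = 4 each), and the difference of 1.08 ± 0.42 did not pass (adjusted p = 0.188). The creosote array was the higher one on 4 of 4 slides (0.45 to 1.60).

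Without overlap between the Mojave diet groups stood Gstm4, the bright Gstm5 probe and the dim Gstm5 probe A_44_P517296, 3 of 8 members against 16.7% of all tested probes. At an unadjusted p under 0.05 by limma there were 5 of 8, and 6780 of 30180 over all tested probes. The median difference was 0.22 for the 8 probes and -0.007 for all probes.

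**Figure D2:**
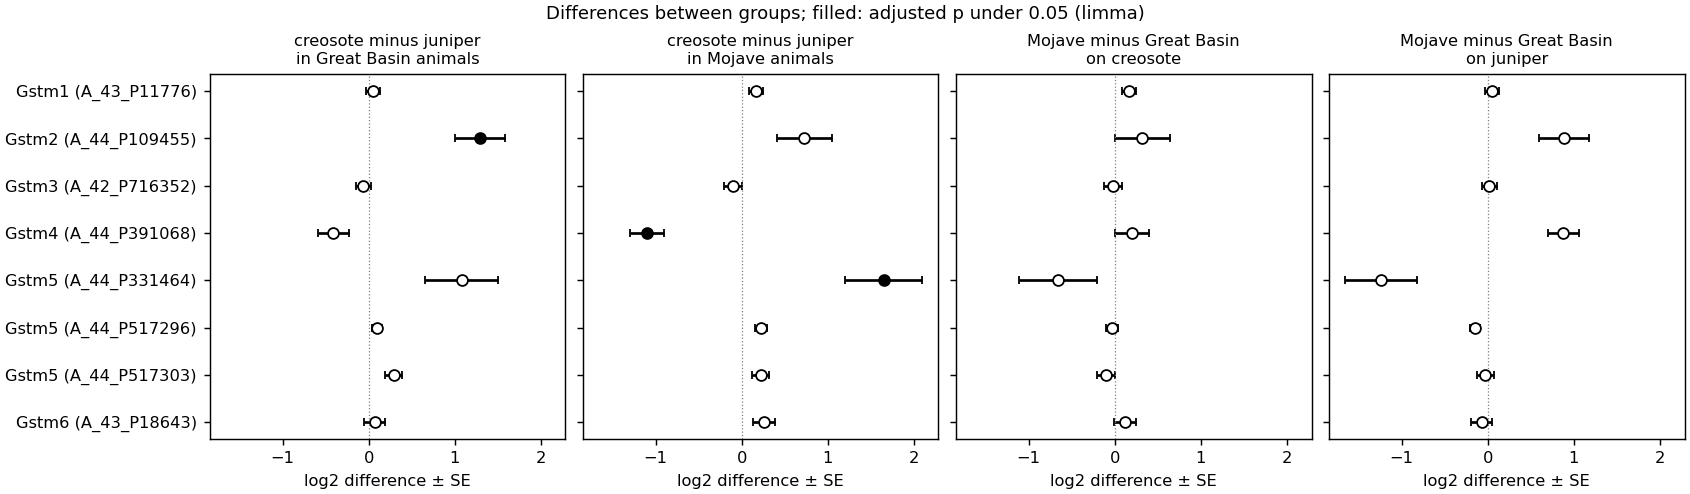
Log2 differences (± SE, limma) of the 8 Gstm probes for creosote minus juniper in each population and for Mojave minus Great Basin on each diet, with filled points where the adjusted p was under 0.05. The filled points are Gstm2 at 1.30 in Great Basin animals, and Gstm4 at -1.10 and Gstm5 at 1.65 in Mojave animals; both population panels hold open points only.

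The dim Gstm5 probes had the direction of the bright one, with much smaller differences in the main fit. There the offset draws dim ratios towards 0. Over the other settings, the difference averaged over populations ran from 0.16 to 0.90 for A_44_P517303 and from 0.12 to 0.30 for A_44_P517296. For the bright probe it ran from 1.08 to 1.46. A_44_P517296 had levels of 0.14, 0.19, 0.08 and 0.23 in Great Basin creosote animals and 0.06, -0.03, 0.08 and 0.13 in Great Basin juniper animals. It had 0.19, 0.15, 0.08 and 0.12 in Mojave creosote animals and -0.06, -0.17, 0.03 and -0.15 in Mojave juniper animals. The Mojave juniper group had the lowest mean and lay below both creosote groups, and the other 3 groups overlapped with each other. Averaged over populations this probe rose by 0.16 ± 0.05 (SE, adjusted p = 0.0383), a call that held in 5 of the 16 fits that each left out 1 animal. Those 5 left out Great Basin creosote 1 or 3, Great Basin juniper 4, Mojave creosote 3 or Mojave juniper 3, and the other fits gave an adjusted p up to 0.111. In Mojave animals the difference was 0.22 ± 0.07 (adjusted p = 0.0595).

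The other dim Gstm5 probe, A_44_P517303, had levels of 0.06, 0.06, 0.33 and 0.45 in Great Basin creosote animals and -0.07, -0.11, -0.15 and 0.08 in Great Basin juniper animals. It had 0.21, -0.07, 0.03 and 0.06 in Mojave creosote animals and -0.20, -0.15, 0.16 and -0.17 in Mojave juniper animals. Great Basin creosote animals 3 and 4, the females of that group, were the 2 highest, and they were the 2 highest by the bright probe too. The groups overlapped within each population. Averaged over populations this probe rose by 0.25 ± 0.07 (SE, adjusted p = 0.0268), a call that held in 10 of the 16 fits that each left out 1 animal. It was lost without Great Basin creosote 3 or 4, Great Basin juniper 3, Mojave creosote 1 or Mojave juniper 1 or 2 (adjusted p up to 0.0764).

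Across the 16 animals the bright Gstm5 probe followed A_44_P517303 with a Pearson r of 0.82, and of 0.76 once group means were removed. With A_44_P517296 the r was 0.76, and 0.33 once group means were removed. These correlations are descriptions over 16 animals that share arrays and the reference pool.

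The probes of Gstm1, Gstm3 and Gstm6 did not pass in any of the 7 comparisons of the main fit. Gstm1, a major mu-class subunit of rat liver, had levels of -0.12, 0.07, 0.11 and -0.04 in Great Basin creosote animals and 0.10, -0.07, -0.09 and -0.12 in Great Basin juniper animals. It had 0.11, -0.03, 0.27 and 0.14 in Mojave creosote animals and -0.05, -0.07, 0.19 and -0.02 in Mojave juniper animals. The groups overlapped on both diets and in both populations. The diet difference was 0.05 in Great Basin animals (95% interval -0.12 to 0.21) and 0.17 in Mojave animals (-0.01 to 0.35). With the red channel alone the Great Basin value turned to -0.33 and passed (adjusted p = 0.0218), so no direction is given for this probe.

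Gstm3 had levels of 0.16, 0.10, -0.30 and 0.16 in Great Basin creosote animals and 0.05, 0.01, 0.05 and 0.25 in Great Basin juniper animals. It had 0.14, 0.08, 0.05 and -0.02 in Mojave creosote animals and 0.06, 0.14, 0.09 and 0.14 in Mojave juniper animals. The values ran from -0.30 to 0.25, and Great Basin creosote animal 3 was the lowest of all 16 animals. The diet difference was -0.06 in Great Basin animals (95% interval -0.25 to 0.13) and -0.10 in Mojave animals (-0.30 to 0.11).

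Gstm6 had levels of 0.16, -0.02, 0.05 and -0.06 in Great Basin creosote animals and -0.16, 0.09, -0.04 and -0.05 in Great Basin juniper animals. It had 0.06, -0.03, 0.07 and 0.38 in Mojave creosote animals and -0.31, -0.17, 0.27 and -0.24 in Mojave juniper animals. The Mojave juniper animals held both the lowest value and the second highest one, and the groups overlapped. The diet difference was 0.07 in Great Basin animals (95% interval -0.17 to 0.32) and 0.26 in Mojave animals (0.00 to 0.53). The Mojave difference ran from 0.18 to 1.31 over 11 other settings and passed in 1 of them (limma adjusted p = 0.0174). It also passed in 1 of the 16 fits that each left out 1 animal (adjusted p = 0.0443). The difference averaged over populations ran from 0.15 to 0.83 and passed in 1 of the 11 settings (adjusted p = 0.0164). At these signals, of 61 to 88.4 units over a local background near 55, a difference would be hard to detect.

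**Figure D3:**
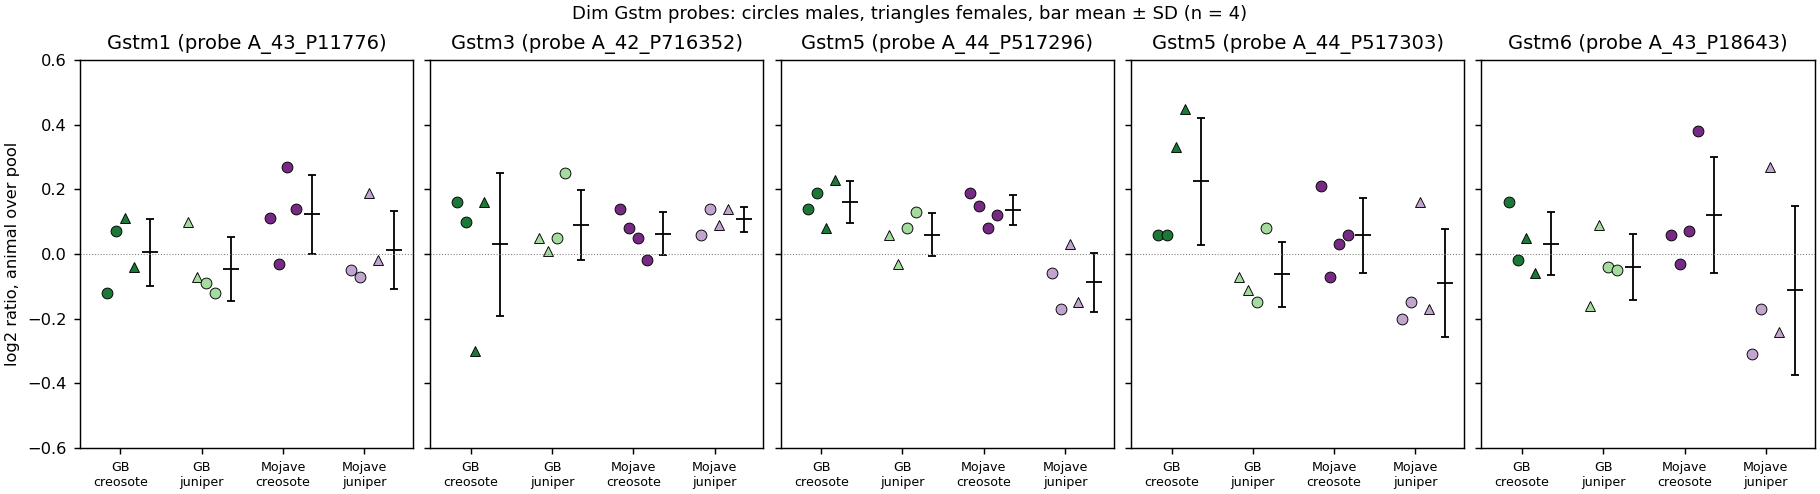
Levels of the 5 dim Gstm probes in each animal, as log2 of animal over pool, on 1 shared vertical scale (GB, Great Basin; circles, males; triangles, females; bar, mean ± SD of 4 animals). Nearly all values lie within 0.4 of the pool, from -0.31 (Gstm6) to 0.45 (A_44_P517303), and Gstm3 has 1 low animal at -0.30 in the Great Basin creosote group.

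The comparison of the populations called no Gstm probe. On creosote 0 of 8 passed (0.0927% of all tested probes), on juniper 0 of 8 (0% of all), and averaged over diets 0 of 8 (0.0398% of all). At an unadjusted p under 0.05 by limma there were 0 of 8 on creosote, 4 of 8 on juniper and 3 of 8 on average, where all tested probes gave 4329, 2476 and 2801. On juniper the bright probes had wide gaps between the populations: Gstm2 was at 0.89 ± 0.29 (Mojave minus Great Basin, SE, adjusted p = 0.399), Gstm4 at 0.88 ± 0.18 (adjusted p = 0.149) and Gstm5 at -1.24 ± 0.42 (adjusted p = 0.414). For these 3 probes the juniper animals of the populations did not overlap, 3 of 8 members against 6.83% of all tested probes. The Mojave array had the higher Gstm4 on 4 of 4 slides (0.68 to 1.12), the higher Gstm2 on 4 of 4 (0.61 to 1.24) and the higher Gstm5 on 0 of 4 (-2.27 to -0.03), always at position 3 against position 4.

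On creosote no Gstm probe separated the populations, where 6.01% of all tested probes did. The differences were 0.32 for Gstm2 (95% interval -0.35 to 0.99), 0.20 for Gstm4 (-0.22 to 0.63) and -0.66 for Gstm5 (-1.63 to 0.31). These intervals are wide, and all Mojave creosote animals were male. The sex term of the model called no Gstm probe (adjusted p of at least 0.994), and its value for the bright Gstm5 probe was -0.46 ± 0.34 (male minus female).

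Whether the diet effect differed between the populations was tested by the interaction, which called 0 of 8 Gstm probes and 0% of all tested probes. At an unadjusted p under 0.05 by limma there was 1 of 8, Gstm4, and 4062 over all probes. Taken as Mojave minus Great Basin, the gap between the diet effects was -0.68 ± 0.27 for Gstm4 (SE, adjusted p = 0.282), -0.57 ± 0.43 for Gstm2 (adjusted p = 0.62) and 0.58 ± 0.62 for Gstm5 (adjusted p = 0.749). A pass in one population and not in the other is therefore not shown to be a difference between them. With median centring the Gstm4 interaction was -1.33 and passed (adjusted p = 0.0333), as did 2970 of all probes under that setting.

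By order of group means, Gstm2 ran from Mojave creosote (0.59) over Great Basin creosote (0.38) and Mojave juniper (-0.03) to Great Basin juniper (-0.92). The first 3 overlapped with their neighbours, and Great Basin juniper lay below all others. Gstm4 ran from Mojave juniper (0.50) over Great Basin juniper (-0.39) and Mojave creosote (-0.62) to Great Basin creosote (-0.80), with Mojave juniper above all others and the last 3 overlapping. Gstm5 by its bright probe ran from Great Basin creosote (1.05) over Mojave creosote (0.16) and Great Basin juniper (-0.03) to Mojave juniper (-1.27). Here the first 3 overlapped with their neighbours and Mojave juniper lay below all others. Thus by each of these bright probes a juniper group stood apart, of the Great Basin for Gstm2 and of the Mojave for Gstm4 and Gstm5. None of the dim probes had such a group, and its share over all tested probes was not counted. The comparison of the populations on juniper and the interaction each called 0 of 8 Gstm probes.

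Gstm4 and Gstm5 ran against each other across the animals. The Pearson r of Gstm4 with the bright Gstm5 probe was -0.76 (Spearman rho -0.74, n = 16), and -0.70 without the 2 animals farthest from the median of Gstm4. Once group means were removed it was -0.24, so most of the relation lay between groups. Gstm2 had an r of -0.09 with Gstm4 and of 0.25 with Gstm5. The points share arrays and the reference pool, and the values describe these 16 animals.

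**Figure D4:**
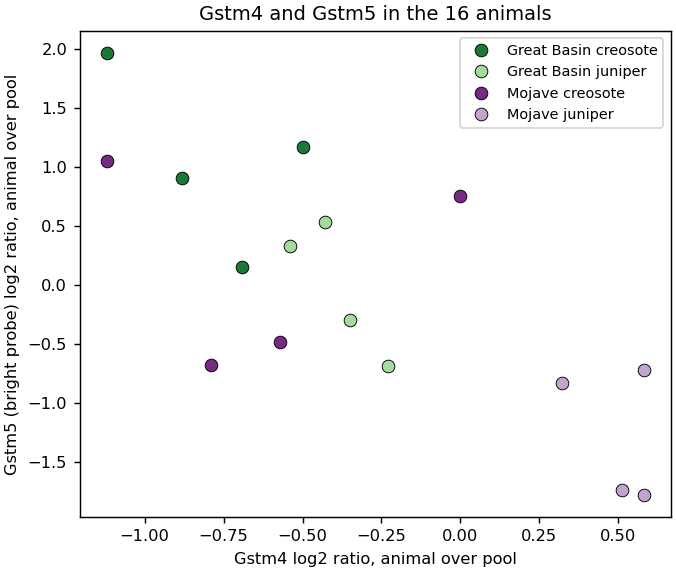
Level of Gstm4 (horizontal) against that of the bright Gstm5 probe (vertical) in the 16 animals, both as log2 of animal over pool, coloured by group. The Mojave juniper animals sit at the lower right, with Gstm4 at 0.32 to 0.58 and Gstm5 at -1.78 to -0.72, and over all animals the Pearson r is -0.76.

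The genes most like each called member were sought among 12930 probes with a gene symbol other than Gstm. Taken were the 5 of highest Pearson r over the 16 animals. For Gstm2 they were Nudt1, which clears oxidised nucleotides (0.87), the sarcoglycan Sgce (0.82), the phosphodiesterase Pde4b (0.81), the methyl-DNA binding Mbd1 (0.80) and Psmc3ip (0.80). For Gstm4 they were Vps13d (0.92), the sorting nexin Snx19 (0.92), Dok4 (0.91), the splicing protein gene Snrp70 (0.91) and the motor protein gene Myo5b (0.90). For Gstm5 they were Sdhb of the respiratory chain (0.88), the coactivator Ncoa6 (0.85), the olfactory receptor Olr1341 (0.81), Snapc2 (0.80) and fibronectin Fn1 (0.79). No Gstm probe could enter these lists, such as the dim Gstm5 probe A_44_P517303 (0.82 with the bright one). None of these 15 is a glutathione transferase of another class. With group means removed, r lay between 0.42 (Fn1) and 0.85 (Sdhb). The animals share diet, group and array design, and the values are descriptions.

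Most other glutathione transferases did not pass for diet, and most of those were measured by dim probes. The counts of this and the next 3 lists stand beside 3.91% of all tested probes passing in Great Basin animals (2.02% higher, 1.89% lower), 10% in Mojave animals (3.8% higher, 6.23% lower) and 12.2% on average (5.65% higher, 6.57% lower). Of 13 measured genes of the alpha, pi, theta, omega, kappa and microsomal classes, 0 rose and 1 fell in Great Basin animals, and 2 rose and 1 fell in Mojave animals. Averaged over populations, 2 rose and 1 fell. The median difference was -0.06 in Great Basin and 0.02 in Mojave animals. Gsto1, an omega-class enzyme with thiol transferase activity, fell in both populations, by -0.85 ± 0.15 (SE, adjusted p = 0.00492) and -0.87 ± 0.17 (adjusted p = 0.00374). The microsomal Mgst3 rose in Mojave animals by 1.08 ± 0.17 (adjusted p = 0.00132), and its second probe gave 1.20. Its Great Basin value was -0.08, and the interaction did not pass (1.16, adjusted p = 0.0757). The theta-class Gstt2 rose in Mojave animals by 0.54 ± 0.11 (adjusted p = 0.00681), by a probe that was itself dim (mean red signal 161). Its second probe, dimmer still (94.1), was at 0.05. All 3 alpha-class genes, the pi-class pair and the kappa-class Gstk1 did not pass in either population, with values between -0.35 and 0.17. Of these only Gsta2 was bright (mean red signal 247000). The others lay between 79.3 (Gsta3) and 266 (Gstp2), where a difference would be hard to detect. Gstt1 (82.3) and Gsto2 (71.4), which did not pass either, were as dim, whereas Mgst1 (143000) and Mgst2 (15500) were bright and did not pass.

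**Figure D5:**
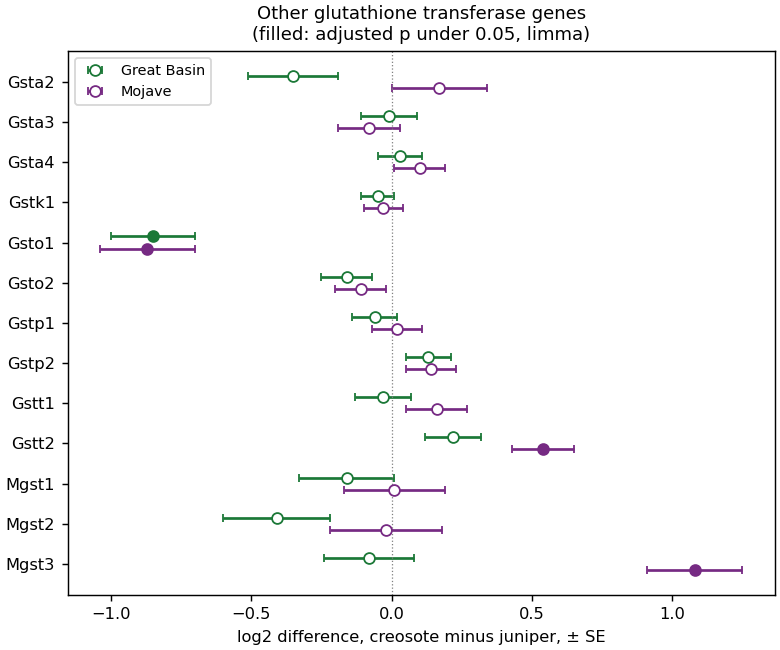
Log2 differences (creosote minus juniper, ± SE, limma) of 13 other glutathione transferase genes by their brightest probe in Great Basin (green) and Mojave animals (purple), with filled points where the adjusted p was under 0.05. Gsto1 is filled in both populations (-0.85 and -0.87), and Mgst3 (1.08) and Gstt2 (0.54) in Mojave animals.

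Enzymes that make and recycle glutathione, the co-substrate of the Gstm proteins, changed in both directions. Of 11 measured, 1 rose and 2 fell in Great Basin animals, 2 rose and 4 fell in Mojave animals, and 2 rose and 3 fell on average. Their median difference was -0.07 in Great Basin and -0.13 in Mojave animals. Cth, which releases cysteine for glutathione synthesis, rose by 1.07 ± 0.19 in Great Basin and 1.04 ± 0.21 in Mojave animals (adjusted p = 0.00492 and 0.00538). Glutathione reductase Gsr, which restores reduced glutathione, was at -0.78 ± 0.13 and -0.84 ± 0.15 (adjusted p = 0.00367 and 0.00198). Thioredoxin Txn1 was at -0.82 ± 0.17 and -0.97 ± 0.18 (adjusted p = 0.018 and 0.00417). Its Great Basin call was lost without Great Basin juniper animal 1, 3 or 4 (adjusted p up to 0.072).

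A list of the mercapturate path and export was read, which holds genes that trim glutathione conjugates or export them. It also holds the bile salt uptake carrier Slc10a1 and the aminoacylases Acy1 and Acy3, which do not form mercapturic acids. Of its 13 measured genes, 0 passed in Great Basin animals. The 2 of smallest p there were the exporter Abcc4 (0.23, limma adjusted p = 0.0796) and Ggtl3 (0.40, adjusted p = 0.105). In Mojave animals 3 rose and 2 fell, and on average 2 rose and 1 fell. The median difference was 0.10 in Great Basin and 0.02 in Mojave animals. Gamma-glutamyltransferase Ggt1, which makes the first cut, fell in Mojave animals by -0.65 ± 0.11 (adjusted p = 0.00211). The aminoacylases Acy1 and Acy3 rose by 0.48 ± 0.11 (adjusted p = 0.0098) and 0.38 ± 0.09 (adjusted p = 0.0146). The second Acy1 probe gave 0.57, and the call of Acy3 was lost without Mojave juniper animal 2 (adjusted p = 0.0605).

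NRF2 is the factor through which electrophiles induce many conjugating enzymes, mu-class transferases among them. A list of its targets and regulators was read, which also holds the xenobiotic receptors Nr1i2, Nr1i3 and Ahr. Of its measured genes, 1 rose and 2 fell of 19 in Great Basin animals, 1 rose and 6 fell of 20 in Mojave animals, and 1 rose and 5 fell of 19 on average. Their median difference was -0.11 in Great Basin and -0.25 in Mojave animals, beside -0.004 and -0.007 over all tested probes. Ugdh, which supplies the sugar for glucuronidation, fell by -1.11 ± 0.16 in Great Basin and -1.05 ± 0.17 in Mojave animals (adjusted p = 0.00107 and 0.0016). The peroxiredoxin Prdx1 fell in Great Basin animals by -0.73 ± 0.13 (adjusted p = 0.00405). Its Mojave value was 0.21 (adjusted p = 0.414), and its interaction did not pass (0.95, adjusted p = 0.0757). Mafk, a small partner protein of NRF2, fell in Mojave animals by -0.76 ± 0.17 (adjusted p = 0.0115). The quinone reductase Nqo1 fell on average by -0.69 ± 0.15 (adjusted p = 0.0066). The gene that rose was one of those receptors, Nr1i3 (CAR), which belongs to a separate drug-sensing pathway, at 0.67 ± 0.11 and 0.82 ± 0.11 (adjusted p = 0.00187 and 0.000592), with a second, dim probe at -0.01 and 0.06. The lists share Txnrd1, Gclc, Abcc2 and Abcc3. In the population comparisons and the interaction, 0 genes of these 4 lists passed.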

How the data were processed

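The scanner files the authors deposited hold, per spot, the mean signal and median local background of both dyes as linear intensity, written by Agilent Feature Extraction 9.1.3.1 per the submitters' processing notes. As the authors' own log2 values, the deposited series table equals processed red over processed green, and it served as an alternative. The limma package 3.58.1 (R 4.3.3) corrected background by normexp (offset 50) and normalised each array by loess, with control and outlier spots at weight 0, and spots were averaged per probe. Testing required a red signal marked well above background on 4 or more of the 16 arrays. A model of 4 group means and sex was fitted to all 16 arrays (residual degrees of freedom 11). Differences with an SE come from this model, whereas the group means with an SD, the ranges and the slide values are not adjusted for sex. P-values are two-sided, adjusted by Benjamini-Hochberg over all tested probes, with a threshold of 0.05. The number of arrays limits the precision. Each array is 1 animal of its own per the labels' titles. The script was tested on simulated data. In gene lists a gene was represented by its brightest tested probe. The members, lists, tests and naming rule were chosen with earlier results of these data known: all Gstm probes, the 5 probes most alike per called gene, and the 3 genes of smallest p per list (2 where none was called). Slide and replicate blocks, signals, normalisation, filters, the sex term, males alone, slide 1 and single animals were varied. Sequences and genome positions were not used here.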

Additional observations from a re-analysis of the deposited data

Results flagged for a closer look

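In each group of 4 animals, the highest and the lowest level of each Gstm probe was set against the others, and an animal was singled out when its gap to the nearest other, as a share of the group's range, exceeded Dixon's critical value at the 95% level. This was met in 3 of 32 groups, and chance alone gives about 1 in 20. By the Gstm3 probe, Great Basin creosote animal 3 stood at -0.30 while the other 3 lay between 0.10 and 0.16. By the same probe, Great Basin juniper animal 4 stood at 0.25 against 0.01 to 0.05. By the dim Gstm5 probe A_44_P517303, Mojave juniper animal 3 stood at 0.16 against -0.20 to -0.15. That array was one of the dim slide 1, at 48.4% of probes well above background, and the part of its signal in the value was not tested. By the bright Gstm5 probe the same animal was at -0.72, the highest of its group as well.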

How the results depend on the processing

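Of the 3 calls within a population, that of Gstm4 in Mojave animals held in all settings run, those of Gstm2 and Gstm5 not. The count of Gstm probes called for diet in Great Basin animals (1) was 2 with the red channel alone and 0 in males alone and without slide 1, and 0 to 1 with 1 animal left out. In Mojave animals (2) it was 1 with median centring, with the red channel alone and in males alone, and 1 to 4 with 1 animal left out (4 without juniper animal 3). Averaged over populations (5) it was 3 with 1 probe per gene and without slide 1, 0 in males alone, and 3 to 5 with 1 animal left out. The interaction count (0) was 1 with median centring. On creosote, the population difference turned with median centring for Gstm2 (-0.08) and Gstm4 (-0.24), and for Gstm4 without Mojave creosote animal 4 (-0.01 to 0.37 with 1 animal left out). The Gstm5 interaction turned with median centring (-0.01). The cause was not tested. Among all probes, the Great Basin diet count of 1180 was 778 with processed signals, 434 without slide 1 and 174 in males, and the Mojave count of 3028 was 5633 with median centring, 1955 with processed signals, 1290 with the red channel alone and 1273 in males. With median centring 63.8%, 13.6% and 28.8% of calls for diet in Great Basin, in Mojave and on average were higher on creosote, against 51.7%, 37.9% and 46.2%. The average diet count of 3689 was 2392 without slide 1 and 1421 in males. The count of all probes called between the populations on creosote, 28, was 3683 with median centring and 346 without the sex term. The interaction count of 0 was 2970 with median centring, 215 without the sex term and 30 with slide as a block.

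The labels do not say whether the replicate numbers pair animals. Deviations of same-numbered animals correlated at -0.17 to 0.14, and 2 of 16 arrays correlated best with their own number. Arrays that shared a slide correlated at -0.13 to 0.14, so such a check cannot exclude a pairing. With the replicate block the Gstm counts for diet were 1, 2 and 4, and A_44_P517296 missed the threshold (0.15, adjusted p = 0.072). Dim signal limits the probes of Gstm1, Gstm3, Gstm6 and the 2 further Gstm5 probes.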
